A study of Mus musculus with 12 samples.

Results

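Glycerophosphodiesterases and the receptors of lysophosphatidic acid were followed in the contused spinal cord of mice that lack interleukin-1 beta or interleukin-1 alpha. The set was defined by gene symbol and held 8 members, namely the glycerophosphodiesterase genes Gdpd3, Gdpd1, Gdpd5 and Gde1, the lysophospholipase D gene Enpp2 and the receptor genes Lpar1, Lpar4 and Lpar6. Of these, 7 had a probe set with 1 gene symbol among the 19938 genes compared, and each had exactly 1 such probe set. Enpp2 was not analysed here. Gdpd3 was selected on its rise in the Il1b KO, so its values in the comparisons that hold this genotype are a description and carry no test. The question was whether any other gene of the family, of the pathway or of the chromosomal neighbourhood followed Gdpd3.

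The tissue was a 6 mm piece of cord around a contusion of 50 kdyn, collected 24 h after injury from mice 8 to 12 weeks old on a C57BL/6 background. The groups were Il1b KO mice, Il1a KO mice and wild type C57BL/6 mice, with 4 arrays each and the same injury in all. All 3 groups were injured and no uninjured cord was analysed here, so every difference is one between genotypes after injury. The labels name the knockouts but not the alleles, their construction or the number of backcrosses, and they do not say whether wild type animals were littermates. They call the arrays biological replicates without naming animals, so every p reflects only how far these arrays scatter, which may be technical. Values are log2 signals of whole-transcript arrays, on which equal differences are equal folds, and signals of different genes are not set against each other.

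Lysophosphatidic acid is a signalling lipid that is made outside cells mainly by autotaxin, the product of Enpp2, and inside cells by several routes. The mouse enzymes encoded by Gdpd3 and Gdpd1 remove the head group of lysophospholipids and leave lysophosphatidic acid, and the same reaction on N-acylated lysophospholipids releases an N-acylethanolamine. The lipid acts through G protein-coupled receptors, and in the nervous system it is known for effects on neurite retraction, myelin and pain after injury.

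Array medians lay between 7.67 and 7.72. Il1b signal was 6.19 to 6.63 in the Il1b KO, against 7.96 to 8.18 in the Il1a KO and 7.68 to 8.06 in wild type. Il1a signal was 4.87 to 5.03 in the Il1a KO and 4.85 to 5.31 in the Il1b KO, against 5.74 to 6.22 in wild type, so this probe set did not tell the knockouts apart. The first principal component, with 33.0% of the variance, set wild type replicate 1 apart at 20.2 from replicate 3 of the Il1b KO at -13.6 and replicate 3 of wild type at -10.2. Il1a KO replicate 1 had an Xist signal of 6.47, against 11.89 to 12.19 in the other arrays, which is that of a male among females. Marker genes of neurons, astrocytes and oligodendrocytes were bright in all arrays, with list means of 11.42 to 11.50, 11.37 to 11.41 and 11.62 to 11.75 in the Il1b KO and 11.43 to 11.51, 11.34 to 11.40 and 11.70 to 11.84 in the Il1a KO, against 11.39 to 11.45, 11.33 to 11.41 and 11.53 to 11.66 in wild type.

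Gdpd3 was far higher in the Il1b KO than in either other genotype. Its signal was 9.66, 9.52, 9.66 and 9.19 in the Il1b KO, against 6.57, 6.63, 6.61 and 6.57 in the Il1a KO and 6.30, 6.68, 6.51 and 6.52 in wild type. Every Il1b KO array thus stood above every array of the other genotypes, and the arrays of the Il1a KO lay within the wild type range. The means were 9.50 ± 0.221 in the Il1b KO, 6.59 ± 0.0292 in the Il1a KO and 6.50 ± 0.158 in wild type (SD, n = 4 each). The Il1b KO minus wild type difference was 3.001 on the log2 scale (95% interval 2.79 to 3.21), an 8.01-fold higher signal, and it was the largest of all genes in absolute size. Against the Il1a KO the difference was 2.91 (95% interval 2.70 to 3.12), or 7.51-fold. Since Gdpd3 was selected on this rise, both intervals describe the scatter of the arrays only. They do not allow for the selection and are no test. The mean signal stood at percentile 76.2 of all genes in the Il1b KO, 23.5 in the Il1a KO and 21.9 in wild type. No detection calls were used, so it is not known whether Gdpd3 was above background outside the Il1b KO, and these folds are ratios of array signals that are not exact measures of the change in transcript. The Il1a KO minus wild type difference, which had no part in the selection, was 0.09 (95% interval -0.12 to 0.30, limma adjusted p = 0.907), and 0.0235 without wild type replicate 1. Leaving out any 1 array gave an Il1b KO minus wild type difference between 2.93, without wild type replicate 1, and 3.11, without Il1b KO replicate 4, the lowest array of its group.

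**Figure D1:**
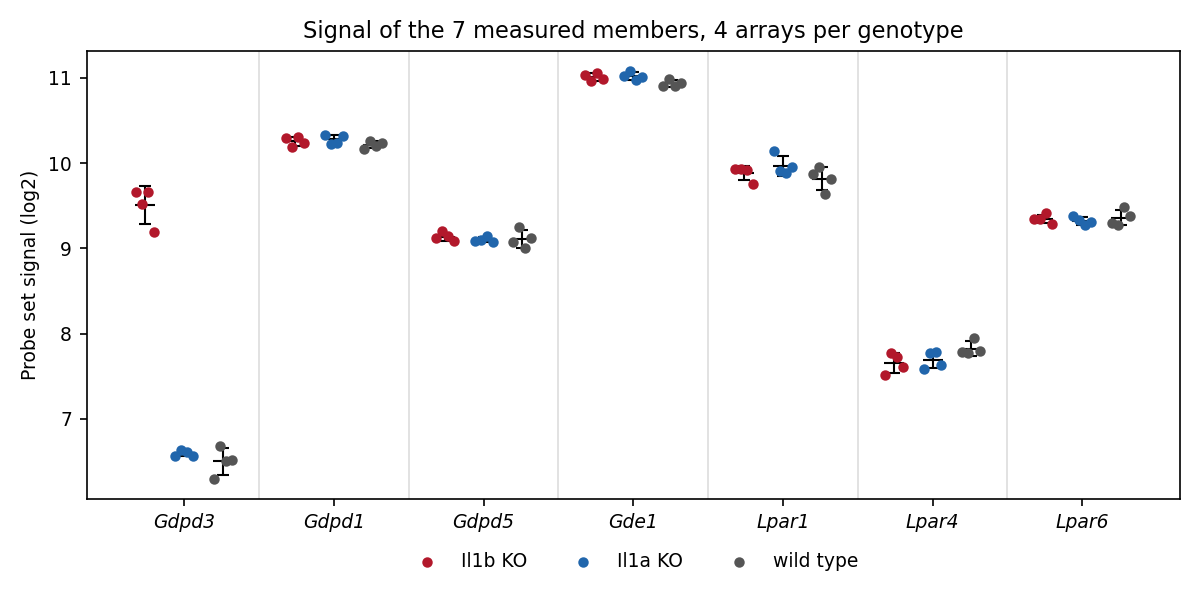
Probe set signal (log2, vertical axis) of the 7 measured members in the Il1b KO (red), the Il1a KO (blue) and wild type (grey), with 1 point per array and bars for the mean and SD of 4 arrays. Gdpd3 lies between 9.19 and 9.66 in the Il1b KO and at no more than 6.68 in the other genotypes, while the genotypes of the other members lie within 0.171 of each other by their means.

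The other glycerophosphodiesterases did not show this pattern. Gdpd1, which encodes the enzyme closest to that of Gdpd3 in the reaction it carries out, had signals of 10.29, 10.19, 10.31 and 10.24 in the Il1b KO, 10.33, 10.23, 10.24 and 10.32 in the Il1a KO and 10.17, 10.26, 10.20 and 10.24 in wild type. The 3 genotypes overlapped, and the Il1b KO minus wild type difference was 0.04 (95% interval -0.05 to 0.13, limma adjusted p = 0.74). Gdpd5 encodes a surface enzyme that cuts glycosylphosphatidylinositol anchors and is known for its part in motor neuron differentiation. Its signals were 9.12, 9.20, 9.14 and 9.09 in the Il1b KO, 9.09, 9.10, 9.14 and 9.07 in the Il1a KO and 9.08, 9.25, 9.0 and 9.12 in wild type. All Il1b KO and all Il1a KO arrays lay inside the wild type range, with an Il1b KO minus wild type difference of 0.02 (95% interval -0.09 to 0.13, adjusted p = 0.889).

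Gde1 encodes a membrane enzyme that releases N-acylethanolamines from their glycerophospho precursors. Its signals were 11.03, 10.96, 11.06 and 10.99 in the Il1b KO, 11.02, 11.08, 10.98 and 11.01 in the Il1a KO and 10.90, 10.99, 10.91 and 10.94 in wild type. Most knockout arrays lay above most wild type arrays, but wild type replicate 2 overlapped with both knockouts. The difference was 0.08 for the Il1b KO minus wild type (95% interval -0.0064 to 0.16, adjusted p = 0.424) and 0.09 for the Il1a KO minus wild type (95% interval 0.0057 to 0.17, unadjusted p = 0.0381, adjusted p = 0.556). Between the knockouts Gde1 differed by -0.01 (adjusted p = 0.969). For the family members outside the set, of which Gdpd4 and Gpcpd1 were added to complete the family, the Il1b KO minus wild type difference was 0.11 for Gdpd2 (adjusted p = 0.606), -0.04 for Gdpd4 (adjusted p = 0.870) and 0.01 for Gpcpd1, which encodes a glycerophosphocholine phosphodiesterase (adjusted p = 0.961). None of the 6 measured family members other than Gdpd3 passed the test in any of the 3 contrasts. Of all genes 0.813% passed in the Il1b KO minus wild type, 0.171% in the Il1a KO minus wild type and 0.652% between the knockouts. Beside such shares this count is no result about the family.

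The receptors did not move with Gdpd3 either. Lpar1, the receptor of the nervous system best known from Schwann cells and oligodendrocytes, had signals of 9.93, 9.93, 9.92 and 9.76 in the Il1b KO, 10.14, 9.91, 9.88 and 9.95 in the Il1a KO and 9.87, 9.95, 9.64 and 9.82 in wild type. The ranges overlapped, and the highest array was Il1a KO replicate 1, the array with the male profile. The difference was 0.06 for the Il1b KO minus wild type (95% interval -0.09 to 0.22, adjusted p = 0.76) and 0.15 for the Il1a KO minus wild type (95% interval -0.0057 to 0.31, adjusted p = 0.627). Without wild type replicate 3, the lowest array, they were 0.00301 and 0.0912. The mean of 9 mature oligodendrocyte markers was 11.62 to 11.75 in the Il1b KO and 11.70 to 11.84 in the Il1a KO, against 11.53 to 11.66 in wild type, so the Il1a KO lay wholly above wild type, and the part of these cells in the Lpar1 values was not tested. Between the knockouts Lpar1 differed by -0.09 (95% interval -0.25 to 0.07, adjusted p = 0.834), and -0.0325 without Il1a KO replicate 1.

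Lpar4 and Lpar6 belong to the purinergic branch of the lysophosphatidic acid receptors and are known from blood vessels. Lpar4 signals were 7.52, 7.77, 7.73 and 7.61 in the Il1b KO, 7.59, 7.77, 7.78 and 7.63 in the Il1a KO and 7.78, 7.77, 7.95 and 7.80 in wild type. Every Il1b KO array lay below every wild type array, the nearest pair by less than the rounding of these values. The Il1b KO minus wild type difference was -0.17 (95% interval -0.31 to -0.03, limma adjusted p = 0.288, unadjusted p = 0.0210) and did not pass. The Il1a KO minus wild type difference was -0.13 (95% interval -0.28 to 0.0060, adjusted p = 0.628), and the knockouts differed by -0.04 (adjusted p = 0.937). Means of 6 endothelial markers were 9.33 to 9.40 in the Il1b KO, 9.27 to 9.34 in the Il1a KO and 9.28 to 9.43 in wild type, with no order between the genotypes. In such bulk tissue fewer cells of a type and less RNA per cell cannot be told apart.

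Lpar6 signals were 9.35, 9.34, 9.41 and 9.29 in the Il1b KO, 9.38, 9.33, 9.27 and 9.31 in the Il1a KO and 9.30, 9.28, 9.48 and 9.38 in wild type. The 3 ranges overlapped. The difference was -0.01 for the Il1b KO minus wild type (95% interval -0.12 to 0.09, adjusted p = 0.938) and -0.04 for the Il1a KO minus wild type (95% interval -0.14 to 0.07, adjusted p = 0.931).

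Over the 6 members other than Gdpd3, 0 passed an adjusted p of 0.05 in the Il1b KO against wild type, where 0.813% of all genes did (162 of 19938). None passed in the Il1a KO against wild type, where 0.171% of all genes did (34), nor in the Il1b KO against the Il1a KO, where 0.652% did (130). Beside such background shares a count of 0 among 6 genes is no result about these members, and the intervals carry the comparison. Unadjusted limma p was under 0.05 for Lpar4 in the Il1b KO minus wild type, where this held for 13% of all genes, for Gde1 in the Il1a KO minus wild type (8.31% of all genes) and for none in the Il1b KO minus the Il1a KO (7.79%). The 18 differences ran between -0.171 and 0.151, and the 95% intervals of the Il1b KO minus wild type differences reached no further than -0.312 and 0.22. Their median was 0.0307 in the Il1b KO minus wild type, beside 0.00397 over all genes. The arrays of the compared genotypes did not overlap for 1 of the 6 members (Lpar4) in the Il1b KO against wild type, where 7% of all genes were so separated. They overlapped for all 6 in the Il1a KO against wild type (5.06% of all genes separated) and in the Il1b KO against the Il1a KO (7.24%).

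**Figure D2:**
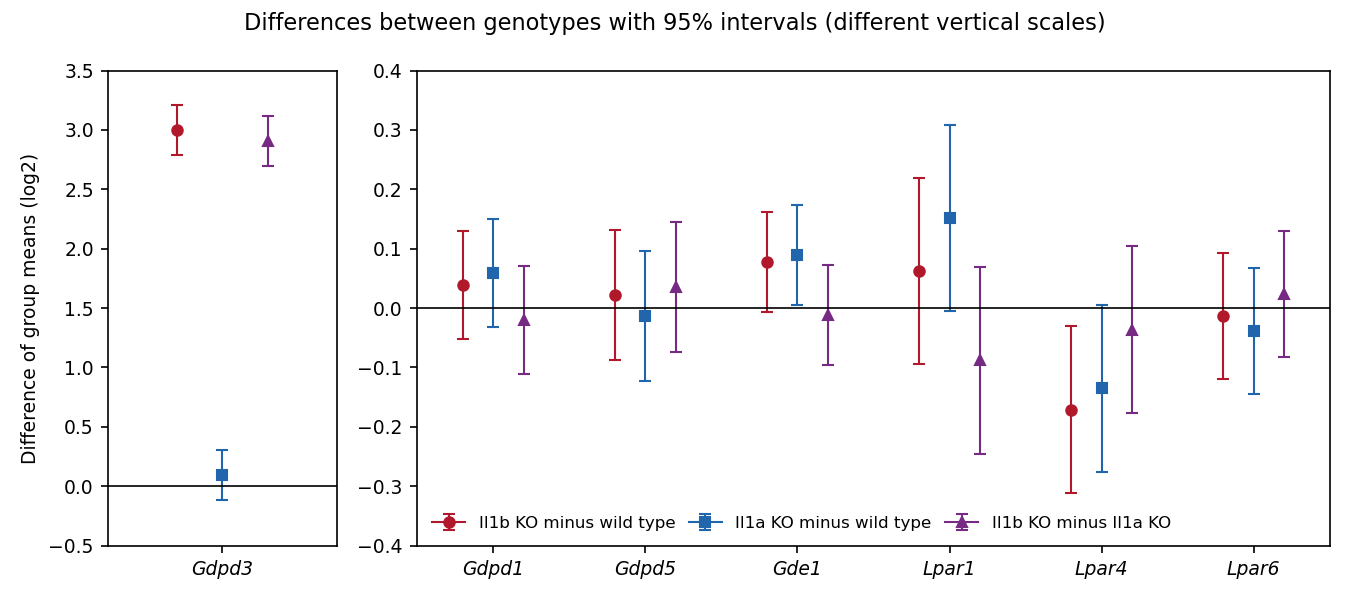
Differences of group means (log2, vertical axis, with a separate scale for Gdpd3 on the left) and their 95% intervals from the limma fit for the Il1b KO minus wild type (circles), the Il1a KO minus wild type (squares) and the Il1b KO minus the Il1a KO (triangles). Gdpd3 differs by 3.001 and 2.91 in the contrasts with the Il1b KO, while no interval of another member reaches beyond -0.312 or 0.308. The intervals of Gdpd3 in those contrasts do not allow for its selection and are no test.

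Members could also vary with Gdpd3 from array to array inside a genotype, which the choice of Gdpd3 did not use. Deviations from the genotype mean were therefore correlated over the 12 arrays, with an exact two-sided permutation of arrays within each genotype and adjustment over the 6 relations. The SD of Gdpd3 was 0.0292 in the Il1a KO, against 0.158 in wild type and 0.221 in the Il1b KO. The Il1a KO arrays thus add little to Pearson's r. Outside the Il1b KO, Gdpd3 was dim and may lie near background, which limits what its deviations can show. Gde1 had Pearson's r = 0.575 (exact permutation p = 0.102, adjusted p = 0.339) and Spearman's rho = 0.657 (exact permutation p = 0.04, adjusted p = 0.132), and Gdpd5 had r = 0.496 (exact permutation p = 0.167, adjusted p = 0.339) and rho = 0.685 (exact permutation p = 0.044, adjusted p = 0.132). Neither passed after adjustment. Without Il1b KO replicate 4 and wild type replicate 1, the arrays farthest from the median of Gdpd3, r was 0.668 for Gde1 and 0.462 for Gdpd5. Gdpd1 (r = 0.475, rho = 0.315) had exact permutation p of 0.19 and 0.372, adjusted to 0.339 and 0.714, and r = 0.399 without those arrays. Lpar1 (r = 0.38, rho = 0.245) had exact permutation p of 0.226 and 0.476, adjusted to 0.339 and 0.714, and r = 0.35 without them. The other receptors stood lower. Lpar6 (r = 0.291, rho = 0.182) had exact permutation p of 0.429 and 0.633, adjusted to 0.515 and 0.76, and r = -0.262 without those arrays. Lpar4 (r = 0.0977, rho = 0.042) had exact permutation p of 0.837 and 0.912, with the same values after adjustment, and r = -0.222 without them. The sign of these r thus rested on those arrays for both purinergic receptors.

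Genes with the same pattern as Gdpd3 were then sought over the whole array. Every Il1b KO array lay above all 8 arrays of the other genotypes for 274 genes (1.37% of all), Gdpd3 included, and the other 273 were ordered by the mean of the Il1b KO minus the mean of the other 8 arrays. Gdpd3 differed by 2.96 on this measure (7.75-fold), whereas the median of the other 273 was 0.13 and only 2 of them exceeded 1. These genes were picked for the pattern, so their values are a description.

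The gene nearest to Gdpd3 was Pla2g4e, with a difference of 1.54 (2.91-fold). It encodes a calcium-dependent N-acyltransferase that makes N-acyl phosphatidylethanolamines, the lipids from which N-acylethanolamines are derived. Its signals were 8.75, 8.71, 8.80 and 8.93 in the Il1b KO, against 7.19, 7.25, 7.26 and 7.31 in the Il1a KO and 7.43, 7.29, 7.23 and 7.09 in wild type. The gap between the Il1b KO and the nearest other array was wider than the range inside any genotype. Cxcl13, a chemokine that attracts B cells, followed with 1.29 and signals of 7.71, 7.23, 7.87 and 8.18 in the Il1b KO, against 6.36, 6.23, 6.58 and 6.49 in the Il1a KO and 6.58, 6.37, 6.47 and 6.57 in wild type. Its Il1b KO arrays were the most scattered of those shown. Masp2, a complement protease that acts in the lectin pathway, differed by 0.939, with 7.77 to 7.89 in the Il1b KO, against 6.85 to 6.98 in the Il1a KO and 6.84 to 6.95 in wild type.

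The remaining 7 genes differed by less. Il1bos, transcribed from the strand opposite to Il1b, differed by 0.807, and whether its probe set is strand-specific is not given in the sources used here. Mrpl20, a protein of the mitochondrial ribosome, differed by 0.706, Fam169a by 0.686, the RNA-binding protein gene Rbm46 by 0.620 and the fatty acid elongase gene Elovl7 by 0.618. Depdc7 differed by 0.605 and Cxcl11, a chemokine ligand of CXCR3, by 0.549. For each of the 10 genes the Il1a KO minus wild type difference did not pass the test, with values between -0.08 for Cxcl13 and 0.28 for Il1bos. Only 0.171% of all genes passed in that contrast, and the choice of these genes held both genotypes below the Il1b KO. That none passed is thus no result about these genes.

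**Figure D3:**
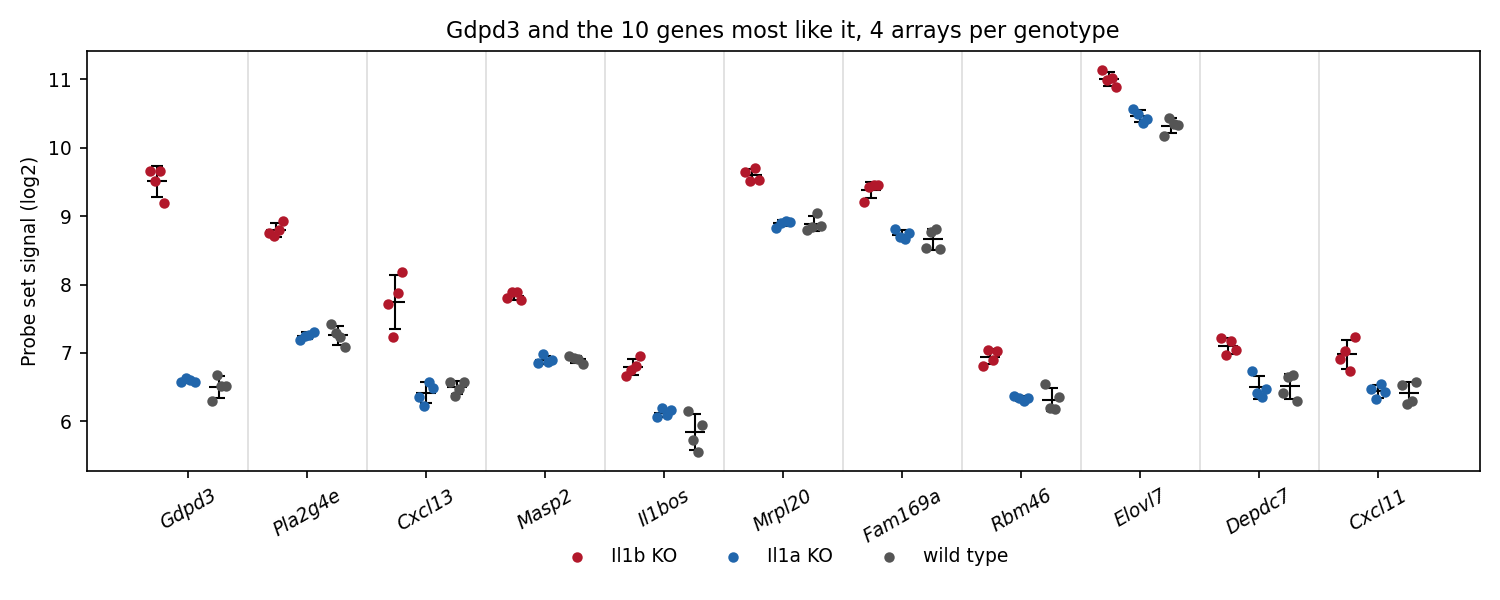
Probe set signal (log2, vertical axis) of Gdpd3 and of the 10 genes with the most similar pattern, ordered by the mean of the Il1b KO minus the mean of the other 8 arrays, with 1 point per array and bars for mean and SD. Every Il1b KO point (red) lies above all Il1a KO (blue) and wild type (grey) points, as the choice of these genes requires, and the difference shrinks to 1.54 at Pla2g4e and 0.549 at Cxcl11.

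By RefSeq gene order, 3 of the 10 lay on chromosome 2, which carries Il1b. Il1bos was next to Il1b with 0 measured genes between them, while 117 lay between Pla2g4e and Il1b and 256 between Depdc7 and Il1b. Of all 273 genes with the pattern, 32 (11.7%) lay on chromosome 2, where 8.69% of all genes lie. Cxcl11 and Cxcl13 lay on chromosome 5 with 12 measured genes between them, Masp2 and Mrpl20 on chromosome 4 with 98 and Fam169a and Elovl7 on chromosome 13 with 64. Gdpd3 itself lies on chromosome 7.

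Genes beside Gdpd3 showed no difference of its size. Among the 10 measured genes on either side on chromosome 7, 0 of 20 passed in any of the 3 contrasts. Of all genes 0.813% passed in the Il1b KO minus wild type, 0.171% in the Il1a KO minus wild type and 0.652% between the knockouts. Beside such shares a count of 0 among 20 genes is no result about the neighbours. Their Il1b KO minus wild type differences ran between -0.106 and 0.106 with a lowest limma adjusted p of 0.367. At an unadjusted p under 0.05 there was 1 in the Il1b KO minus wild type, where this held for 13% of all genes. There was 1 in the Il1a KO minus wild type (8.31% of all genes) and 3 between the knockouts (7.79%). The nearest genes on one side were Coro1a, an actin-binding protein gene of leukocytes (0.06, adjusted p = 0.613), and Bola2, an iron-sulphur cluster factor gene (0.07, adjusted p = 0.542). On the other side they were Ypel3 (0.04, adjusted p = 0.651) and Tbx6, a transcription factor gene of mesoderm (0.0012, adjusted p = 0.997). No neighbour had its Il1b KO arrays apart from wild type, where 7% of all genes did. The arrays did not overlap for 1 neighbour in the Il1a KO against wild type (5.06% of all genes) and 2 between the knockouts (7.24%). The largest difference of a neighbour in any contrast was that of Nupr1 in the Il1a KO minus wild type (-0.29, adjusted p = 0.199), and it was named after its values were seen. With a replicate block Nupr1 passed in that contrast (adjusted p = 0.0401) and in the Il1b KO minus the Il1a KO (0.28, adjusted p = 0.0189), and with array weights in the Il1a KO minus wild type (adjusted p = 0.0462). Of 19938 genes, the replicate block called 26 and 105 in these contrasts, and array weights called 306 in the Il1a KO minus wild type. These fits use the same arrays, so the calls are no independent result.

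**Figure D4:**
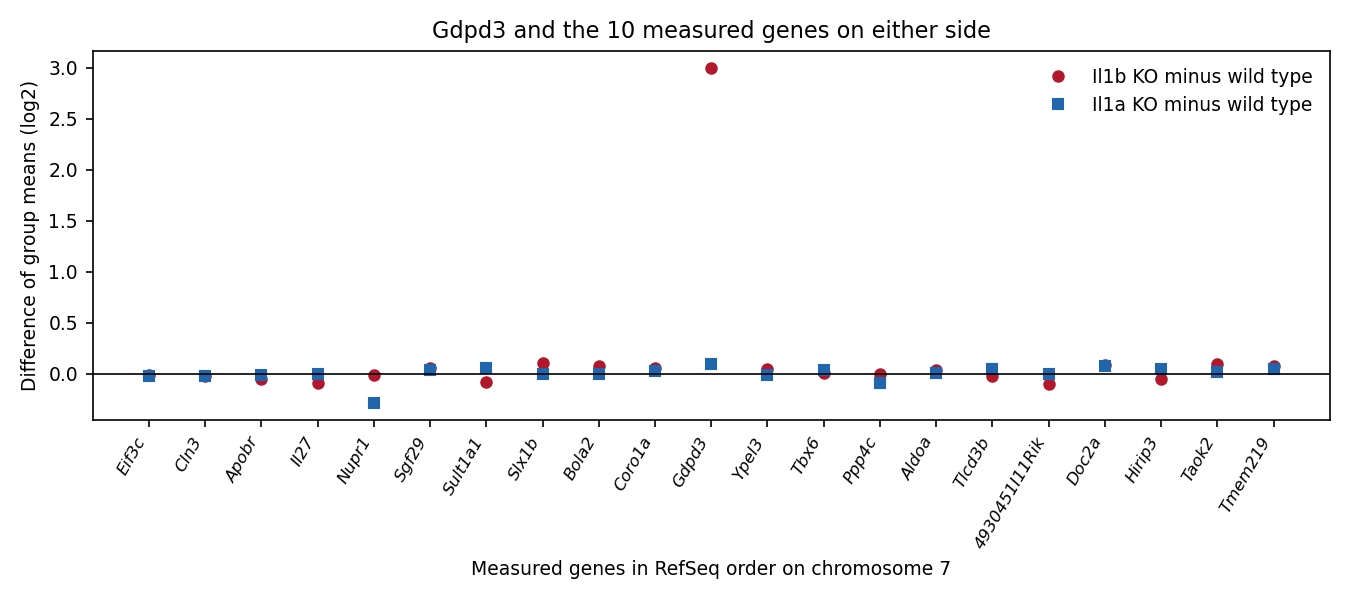
Difference of group means (log2, vertical axis) of Gdpd3 and of the 10 measured genes on either side of it on chromosome 7, in RefSeq order, for the Il1b KO minus wild type (circles) and the Il1a KO minus wild type (squares). Gdpd3 stands at 3.001 in the Il1b KO, while its 20 neighbours lie between -0.106 and 0.106 in that contrast.

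The promoters of Gdpd3 and Pla2g4e are shown because they are the genes that stood furthest above the other genotypes in the Il1b KO, and that of Gde1 because it belongs to the same family and chromosome as Gdpd3 without this pattern. The sequences are RefSeq's (GRCm38.p6) and run from 250 bases before to 50 bases after the annotated start, in the direction of transcription, at chr7:126766164-126766463 (plus strand) for Gdpd3, chr2:120245286-120245585 (minus strand) for Pla2g4e and chr7:118705689-118705988 (minus strand) for Gde1. Capitals mark a match to a searched motif.
Gdpd3: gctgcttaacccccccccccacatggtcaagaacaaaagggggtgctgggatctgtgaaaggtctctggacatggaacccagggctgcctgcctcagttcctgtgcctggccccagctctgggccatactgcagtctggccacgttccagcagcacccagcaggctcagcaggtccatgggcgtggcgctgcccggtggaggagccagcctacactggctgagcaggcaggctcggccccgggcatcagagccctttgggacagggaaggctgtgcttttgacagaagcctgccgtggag
Pla2g4e: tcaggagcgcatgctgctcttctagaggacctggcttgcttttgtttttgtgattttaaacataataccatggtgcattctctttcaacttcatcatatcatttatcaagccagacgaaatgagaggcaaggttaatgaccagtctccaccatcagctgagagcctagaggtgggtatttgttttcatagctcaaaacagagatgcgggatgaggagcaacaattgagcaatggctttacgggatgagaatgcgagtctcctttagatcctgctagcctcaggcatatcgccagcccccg
Gde1: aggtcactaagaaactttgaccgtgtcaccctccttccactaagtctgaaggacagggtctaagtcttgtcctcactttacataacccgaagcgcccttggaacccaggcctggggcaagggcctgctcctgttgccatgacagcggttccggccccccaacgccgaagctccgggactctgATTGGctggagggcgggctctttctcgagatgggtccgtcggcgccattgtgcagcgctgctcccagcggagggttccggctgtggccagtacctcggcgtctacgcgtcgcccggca

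Motifs were searched on both strands as exact letters, with N for any base. The NF-kB motif GGAANTTCC was in 0.928% of 32851 promoters of this length, the TATA box TATAAA in 13.6%, the CCAAT box CCAAT in 37.4%, the E-box CACGTG in 7.15% and the AP-1 motif TGANTCA in 7.81%. The windows of Gdpd3 and Pla2g4e held no match to any of these 5, and that of Gde1 held 1 CCAAT box on the opposite strand (ATTGG), which begins at position 183 of the printed sequence. The Gdpd3 window had 64.3% GC and 7 CpG sites, that of Pla2g4e 46.0% GC and 7 CpG sites and that of Gde1 62.3% GC and 22 CpG sites, beside a median of 7 CpG sites over all promoters. Of the 7 measured members, 6 had a promoter entry.

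The wider pathway was read from 8 gene lists with 66 genes, of which 62 were measured. The lists were drawn up with earlier results of these data known, those of Pla2g4e and Naaa among them. Of the 61 genes other than Gdpd3, 1 was higher and 1 lower in the Il1b KO than in wild type, 0 differed between the Il1a KO and wild type, and 1 was higher and 2 lower in the Il1b KO than in the Il1a KO. The shares of all genes that passed were 0.813%, 0.171% and 0.652% in the same order. At an unadjusted limma p under 0.05 there were 14 in the Il1b KO minus wild type, 9 in the Il1a KO minus wild type and 6 in the Il1b KO minus the Il1a KO, beside 13%, 8.31% and 7.79% of all genes. Since the calls of Pla2g4e and Naaa were known when the lists were made, these counts are no independent result. The median difference was 0.0154 in the Il1b KO minus wild type, beside 0.00397 over all genes. The calls fell in 2 of the lists, those of N-acylethanolamine metabolism and of lysophosphatidic acid removal.

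In N-acylethanolamine metabolism, 1 of 8 genes was called higher and 1 lower in the Il1b KO than in wild type, where 0.813% of all genes passed. Both calls were known when the list was made and are given as a description. Pla2g4e, described above, differed by 1.54 in the Il1b KO minus wild type (SE 0.0676) and by 1.55 in the Il1b KO minus the Il1a KO. In the Il1a KO minus wild type it differed by -0.0065 (limma adjusted p = 0.997). Naaa, the lysosomal amidase that breaks down palmitoylethanolamide and related N-acylethanolamines, differed in the other direction. Its signals were 9.56, 9.45, 9.67 and 9.64 in the Il1b KO, against 10.09, 10.11, 10.12 and 10.15 in the Il1a KO and 10.15, 10.25, 10.15 and 10.10 in wild type. The Il1b KO arrays all lay below the others, and the difference was -0.58 in the Il1b KO minus wild type (SE 0.0501) and -0.54 in the Il1b KO minus the Il1a KO. In the Il1a KO minus wild type it differed by -0.04 (adjusted p = 0.917). Naaa lies on chromosome 5 with 4 measured genes between it and Cxcl11. Both calls held under all 19 alternatives. These refit the same arrays, and the genes were listed with their results known, so this adds no independent result. The other 6 genes of the list did not pass, with Il1b KO minus wild type differences between -0.189 and 0.241 and a lowest adjusted p of 0.0849. Beside the share of all genes that passed, this is no result about them.

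Among 12 genes that dephosphorylate or acylate lysophosphatidic acid, 1 passed, and only between the knockouts, where 0.652% of all genes did. Plpp4, a phospholipid phosphatase gene on chromosome 7, was lower in the Il1b KO than in the Il1a KO (-0.27, adjusted p = 0.0452). Its Il1b KO minus wild type difference was -0.23 (adjusted p = 0.0870). The call was lost in 10 of 12 repeats without 1 array, with adjusted p between 0.0559 and 0.165, and with a replicate block (adjusted p = 0.0784). It was kept in 8 of 19 alternatives, with a lowest limma adjusted p of 0.00324 under array weights, where 244 of 19938 genes passed. All of these refit the same arrays.

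No gene of the other 6 lists passed in any contrast. With no more than 0.813% of all genes past the test in any contrast, this count is no result about these lists. Among the other enzymes that form lysophosphatidic acid (4 measured), Agk, a mitochondrial acylglycerol kinase gene, differed by 0.03 in the Il1b KO minus wild type (adjusted p = 0.763) and Pla1a, a phospholipase A1 gene, by -0.03 (adjusted p = 0.921). Among 6 receptor genes, P2ry10, whose product is better known as a receptor of lysophosphatidylserine, differed by 0.06 (adjusted p = 0.755), beside Lpar4 above. Of the 5 phospholipid phosphatase related genes, Plppr3 differed by 0.09 (adjusted p = 0.494) and Plppr4, a synaptic membrane protein gene, by 0.06 (adjusted p = 0.690). In the list of glycerophosphocholine and choline metabolism (7 measured), Enpp6, a choline-specific phosphodiesterase gene of new oligodendrocytes, differed by 0.40 (adjusted p = 0.0648) and Lypla2, a lysophospholipase and thioesterase gene, by -0.20 (adjusted p = 0.132). Beside Enpp6, the mean of 5 oligodendrocyte precursor markers was 9.82 to 9.91 in the Il1b KO and 9.78 to 9.89 in the Il1a KO, against 9.64 to 9.76 in wild type, so both knockouts stood above wild type, and their part in its value was not tested.

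In the list of receptor coupling and of genes that SRF and YAP induce, 0 of 13 measured genes passed, with 3 at an unadjusted limma p under 0.05 in the Il1b KO minus wild type. With 0.813% of all genes past the test in that contrast, this count is no result about signalling downstream of the receptors. Edn1, which encodes endothelin-1, differed by -0.27 in the Il1b KO minus wild type (adjusted p = 0.223) and by -0.29 in the Il1a KO minus wild type (adjusted p = 0.335). Ccn2, a matricellular growth factor gene that YAP and SRF induce, differed by -0.24 (adjusted p = 0.311) and -0.34 (adjusted p = 0.297) in the same contrasts. Both had a lower mean in either knockout than in wild type. In the Il1b KO minus wild type, further pathway genes passed under some alternatives, namely Enpp6 in 5 of 19, Plpp4 and Plaat1 in 3 each, and Lypla2 and Edn1 in 1 each, that with array weights. Plaat1, an N-acyltransferase and phospholipase gene named here after its values were seen, differed by 0.24 (adjusted p = 0.0849) in the fit without weights. In the Il1a KO minus wild type, Plaat1 (adjusted p = 0.0116) and Edn1 (adjusted p = 0.0438) passed with array weights. Of 19938 genes, array weights called 1145 in the Il1b KO minus wild type and 306 in the Il1a KO minus wild type. In the Il1b KO minus wild type an intensity trend called 303 and the 2 groups alone 85. The alternatives refit the same arrays, so these further calls are no independent result about the genes.

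**Figure D5:**
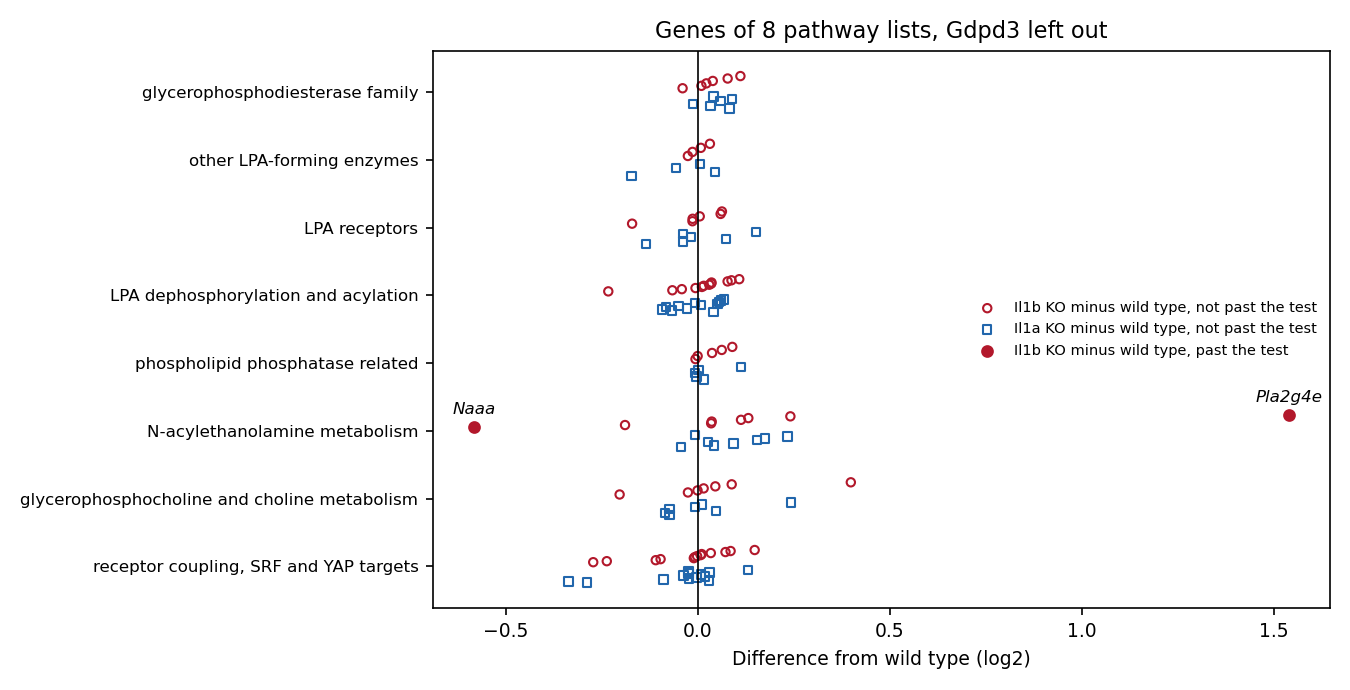
Difference from wild type (log2, horizontal axis) of the 61 measured genes other than Gdpd3 in 8 pathway lists, for the Il1b KO (circles) and the Il1a KO (squares), with filled symbols for genes past an adjusted p of 0.05. Pla2g4e at 1.54 and Naaa at -0.58 are the filled points, and the other genes lie around 0.

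Markers of other cell types were set beside Gdpd3, since its cells of origin in this tissue are not given by the arrays. Of the 12 marker lists, only that of neutrophils held a gene past the test in the Il1b KO against wild type (Ly6g, -0.55, limma adjusted p = 0.00869). It was 1 of 6 neutrophil markers, of which 1 had a higher mean in the Il1b KO than in wild type. With 0.813% of all genes past the test in this contrast, a single call over 12 lists is no result about neutrophils. The mean of the 6 neutrophil markers was 7.24 to 7.98 in the Il1b KO and 7.37 to 7.74 in the Il1a KO, against 7.81 to 8.16 in wild type. Epithelial and keratinocyte markers had means of 6.94 to 7.32 in the Il1b KO, 7.09 to 7.16 in the Il1a KO and 7.04 to 7.27 in wild type. Skeletal muscle markers had means of 6.74 to 6.90 in the Il1b KO, 6.83 to 6.86 in the Il1a KO and 6.82 to 7.26 in wild type. The part of any of these cells in the Gdpd3 difference was not tested.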

How the data were processed

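RNA of the injured cord had been hybridised to 12 whole-transcript arrays. The authors deposited log2 values, 1 per probe set and array, which were used as they stand. The submitters' processing notes name Partek, limma, RMA and GCOS 1.4 without saying what each did. That the values are RMA summaries was inferred from these names and from their range of 2.97 to 14.4. The arrays had near-equal but not identical distributions (values of the same rank differed by a median of 0.0849 between the lowest and the highest array), so most of an overall shift in RNA amount would not show. Differences of dim genes can be understated. Detection calls were not used. The annotation's genome build is not given in the sources used here. Arrays have no counts, and their number limits the precision.

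Of 35557 probe sets, 21789 had 1 gene symbol in the platform's annotation, 1621 had several and 12147 had none listed, and only those with 1 were used. The brightest probe set stood for a gene, which left 19938 genes. RefSeq genes of GRCm38.p6 gave the chromosome and order of 19856.

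A model with 1 mean per genotype was fitted to all arrays with limma 3.58.1 in R 4.3.3 (two-sided moderated statistics, no trend). P-values were adjusted by Benjamini and Hochberg over all genes of a contrast, with 0.05 as the threshold, and the fit was tested on simulated data. Permutations used scipy 1.17.1 in Python 3.11.15. The members and gene lists were chosen with earlier results of these data known. Named were the members, pathway genes past the threshold or otherwise the 2 of a list with the smallest p in the Il1b KO minus wild type, the 10 genes most like Gdpd3, and the 2 nearest neighbours on each side. Gdpd4, Gpcpd1, Plaat1, Nupr1 and Ly6g were named outside this rule. Alternatives were quantile normalisation repeated, an intensity trend, array weights, the 2 compared groups alone, a filter on dim genes, every probe set tested, a replicate block and leaving out each array. Lpar5, Chkb, Rock2 and Ly6c2 of the lists, among others, were not analysed here.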

Additional observations from a re-analysis of the deposited data

Results flagged for a closer look

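Among the members and named genes, 69 groups of 4 arrays were examined for an array far from the other 3, and 2 were found, where chance gives about 1 in 20. Lpar1 in Il1b KO replicate 4 was 9.76, against 9.92 to 9.93 in the other 3 Il1b KO arrays, a gap of 0.913 of the group's range, above Dixon's 95% critical value for 4 values. That array also had the lowest Gdpd3 signal of its genotype, 9.19. Fam169a in Il1b KO replicate 1 was 9.21, against 9.42 to 9.45 in the other 3 Il1b KO arrays, a gap of 0.903 of the range.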

How the results depend on the processing

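No member other than Gdpd3 passed the threshold in any of the 3 contrasts under any of 19 alternatives. The lowest limma adjusted p among them was 0.0756 (Lpar4, Il1b KO minus wild type). In the main fit 0.813%, 0.171% and 0.652% of all genes passed in the 3 contrasts. A count of 0 among 6 members is thus no result about them, and the alternatives refit the same arrays. Gdpd3 differed by 2.93 to 3.11 in the Il1b KO minus wild type and by 2.86 to 3.01 in the Il1b KO minus the Il1a KO when 1 array was left out. The counts over all genes moved more. For the Il1b KO minus wild type (162 genes) they were 303 with an intensity trend, 85 with those groups alone and 1145 with array weights. For the Il1a KO minus wild type (34) they were 72, 15 and 306, and for the Il1b KO minus the Il1a KO (130) array weights gave 244. Leaving out 1 array gave 106 (wild type replicate 4) to 177 for the Il1b KO minus wild type, with 107 without Il1b KO replicate 1. It gave 18 (wild type replicate 4) to 49 for the Il1a KO minus wild type, with 19 without Il1a KO replicate 3 or 4, and 88 to 146 for the Il1b KO minus the Il1a KO. The causes were not tested.

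Of the 19 tested differences of members, none past the threshold, 14 moved by over 1.5 times in some repeat without 1 array, all within -0.208 to 0.194, and some changed sign. Gdpd5 in the Il1b KO minus wild type was -0.00879 with quantile normalisation repeated, -0.00434 with array weights and -0.0152 to 0.0692 without 1 array. Without 1 array Gdpd5 was -0.0505 to 0.034 and Lpar6 -0.0634 to 0.00243 in the Il1a KO minus wild type, and Lpar6 was -0.0391 to 0.0268 in the Il1b KO minus wild type. In the Il1b KO minus the Il1a KO, Gde1 was -0.0294 to 0.00608, Gdpd1 -0.0386 to 0.00212 and Lpar4 -0.073 to 0.00864.

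Replicate numbers did not pair the arrays: same-numbered arrays of 2 genotypes correlated between -0.374 and 0.441 in their deviations, and 2 of 12 pairs were over 0.1. Each array was also set against the 4 arrays of each other genotype. In 4 of these 24 comparisons the best-correlated array had the same number. With a replicate block 120 genes passed for the Il1b KO minus wild type, 26 for the Il1a KO minus wild type and 105 for the Il1b KO minus the Il1a KO. Cxcl11 differed by 0.45 to 0.616 in the Il1b KO minus the Il1a KO without 1 array, and did not pass the threshold in 5 of 12 such repeats. It was picked for its Il1b KO values, so passing or not passing here is a description and no test. Another probe set per member could not be tried because each has 1. Cxcl11, Il1bos and Rbm46 dropped out when the dimmest 25% of genes were left out. Signals this dim may lie near background, which was not measured, so their differences may be understated. The same caution holds for Gdpd3, Cxcl13 and Depdc7, which passed that filter through their Il1b KO arrays: over the other 8 arrays they stood at percentiles 22.6, 21.3 and 21.9 of all genes.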
